A study of Mus musculus with 4 samples.

Results

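The nuclei described here came from 2 libraries of mice on a high-fat diet after surgery, 1 from tissue labelled brown adipose tissue and 1 from tissue labelled beige adipose tissue. All barcodes of these libraries with at least 300 detected genes and under 10% of unique molecular identifiers (UMIs, counted RNA molecules) from mitochondrially encoded genes were members. These were 15891 barcodes, 9942 with the brown label and 5949 with the beige label, of 36690 that passed the same limits in all 4 libraries of the study. The study, on bariatric surgery, held 1 library for each pairing of the tissue labels with surgery or a sham operation, and every group was on a high-fat diet. The labels used here state no strain, age, sex, time after surgery, kind of operation or number of animals in a library. RNA is labelled as nuclear, while the protocol describes minced, enzyme-digested tissue taken into suspension and checked for viability. "Brown" and "beige" below are the labels of the libraries, and paired values give the brown library first. With 1 library a side there was no test and no measure of how animals vary, and the text gives sizes only. Every interval is an exact 95% interval that covers counting error only.

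Brown adipocytes burn lipid to make heat through Ucp1, the uncoupling protein of their mitochondria, and beige adipocytes are thermogenic cells that arise within white fat. Fat depots also carry a positional code of Hox genes and of factors such as Tbx15, a marker of subcutaneous fat, and Wt1 and Tcf21, known from visceral fat. Progenitors, blood vessels, lymphatics and resident immune cells surround the adipocytes, and macrophages that take up lipid express Trem2 and cathepsins.

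Ucp1 and Zic1, genes that define classical brown fat, were at or near 0 in both libraries. Adipocyte-like nuclei held 0 Ucp1 UMIs in each, and the floor of 3 UMIs corresponds to 0.831 and 0.700 CPM (the UMIs of a gene scaled to a common total of UMIs in the class, counts per 1e6). In the whole libraries Ucp1 had 25 and 1 UMIs, and 22 of the 25 lay in epithelial-like nuclei. Zic1 had 0 UMIs in both. Prdm16, the coregulator of the brown and beige programme, was not near 0: over the whole libraries it stood at 132 CPM with the brown label and 86.6 with the beige label. Of its 6900 UMIs with the brown label only 132 lay in adipocyte-like nuclei, against 1397 of 1662 with the beige label. Lhx8, a further brown-fat factor, had 7 UMIs with the brown label and 97 with the beige label. Tbx15 (chromosome 3, 99240381 to 99354259, plus strand, GENCODE M21 on GRCm38) had 125 UMIs with the brown label and 900 with the beige label. Per library these were 2.40 and 46.9 CPM. Wt1 had 798 and 21 UMIs (15.3 and 1.09 CPM), and Tcf21 had 101 and 13 (1.94 and 0.677 CPM). In the sham libraries Wt1 had 3 and 0 UMIs and Tbx15 4838 and 2522.

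The libraries differed in their mix of nuclear classes. After 783 brown (7.88%) and 621 beige (10.4%) barcodes were marked as doublets, 9159 and 5328 nuclei were kept, with median UMIs of 5173 and 2654. Only 42 barcodes occurred in both libraries. Epithelial-like nuclei were 62.0% of the brown library (5675 nuclei, interval 61.0% to 63.0%) and 0 of 5328 in the beige library. The exact upper limit of that 0 was 0.0692%. With the 0 put at 3 nuclei, a share of 0.0563%, the brown share was at least 1100-fold higher. Immune classes together held 1283 brown nuclei (interval 13.3% to 14.7% of the library) and 3885 beige nuclei (71.7% to 74.1%). Adipocyte-like nuclei were a minority in both, at 6.25% (572 nuclei) and 9.20% (490 nuclei), a ratio of 0.679 (0.601 to 0.768). In the sham libraries this class held 41.8% and 49.6%, epithelial-like nuclei 0.584% and 0 of 9676 nuclei, and immune classes 16.5% and 10.2%.

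Lymphoid nuclei made up most of the beige library. B cell-like nuclei numbered 25 (0.273%) and 1697 (31.9%), a share 117-fold lower with the brown label. T or NK-like nuclei numbered 137 and 1571 (29.5% of the beige library), a share 19.7-fold lower with the brown label. Dendritic-like nuclei numbered 25 (0.273%) and 361 (6.78%), a brown over beige ratio of 0.0403, which was 0.161 with doublets kept and 0.0137 at the coarser clustering resolution of 0.5. Macrophage-like and plasma cell-like nuclei went the other way. Macrophage-like nuclei numbered 999 (10.9%) and 239 (4.49%), a 2.43-fold higher share (2.11 to 2.81) with the brown label. Plasma cell-like nuclei, which secrete antibody, numbered 97 (1.06%) and 17 (0.319%), 3.32-fold higher (1.97 to 5.93). Endothelial-like shares were close, at 2.01% (184) and 2.14% (114), a ratio of 0.939 (0.739 to 1.20). Lymphatic endothelial-like nuclei were 0.568% (52) and 1.43% (76), 2.51-fold lower. Skeletal muscle-like nuclei were seen with the beige label only, 36 of 5328 against 0 of 9159, and the beige share was at least 20.6-fold higher.

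**Figure D1:**
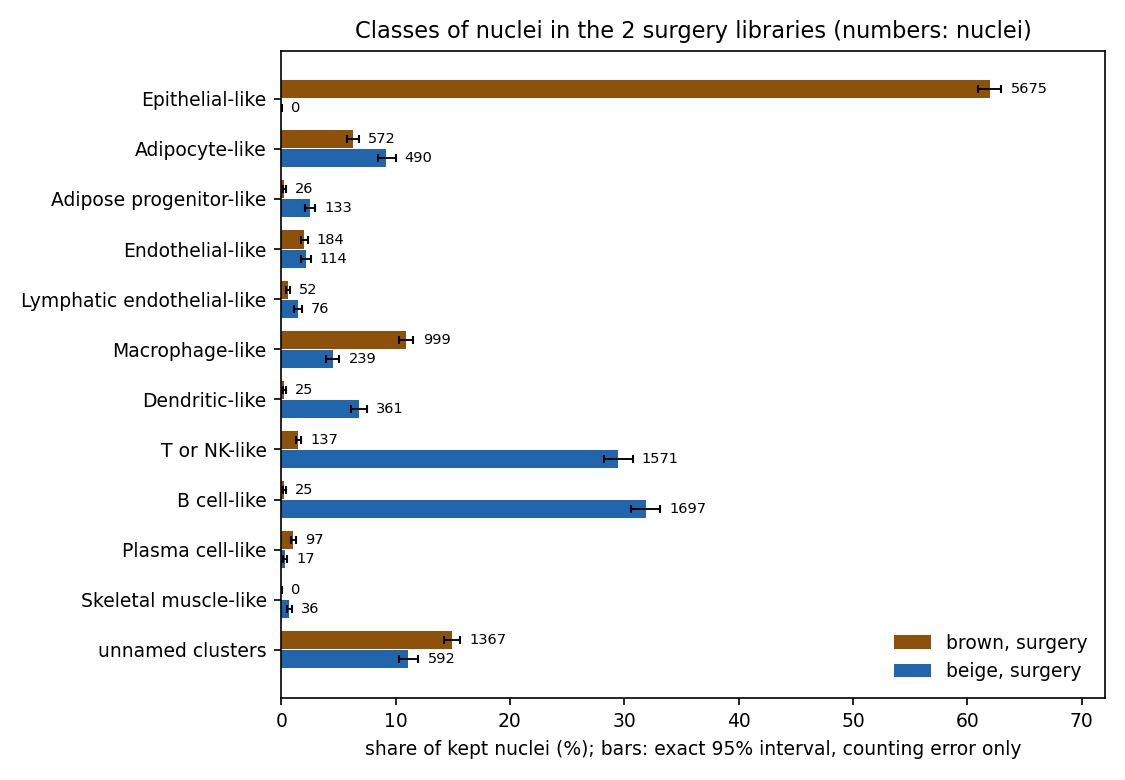
Share of kept nuclei (%) in each class for the brown (brown bars) and beige (blue bars) surgery libraries, with exact 95% intervals for counting error and the number of nuclei beside each bar. Epithelial-like nuclei fill 62.0% of the brown library and B cell-like with T or NK-like nuclei most of the beige library, while adipocyte-like nuclei hold 6.25% and 9.20%.

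The 7 unnamed clusters held 14.9% of brown and 11.1% of beige nuclei, and most of them were unevenly split between the libraries. Cluster 3, led by the haemoglobin genes Hbb-bs and Hba-a2, held 5 brown and 43 beige nuclei. Cluster 15, led by Kcnd3, Saa3 and Mgp, held 747 brown and 0 beige nuclei and had the gene of the epididymal enzyme Gpx5 at 13128 CPM. Cluster 14, led by C7, Col6a5 and Wt1, held 538 and 38. Cluster 22, led by Mybl1, Top2a, Mki67 and Rgs13, held 16 and 291. Cluster 28, led by Pcdh15, Csmd1 and Adgrb3, held 0 and 167. A cluster found in 1 library may reflect that library rather than a cell type. Leading genes set a cluster apart when classes were built, so values of such genes below are description only.

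An epididymal gene was found in every class of the brown library. In droplet libraries RNA that floats free in the suspension can be counted in any barcode. Gpx5 (chromosome 13, 21286429 to 21292731, minus strand), which encodes a glutathione peroxidase secreted in the epididymis, had 232349 UMIs in the brown library and 0 in each of the other 3. Its level was 4783 CPM in epithelial-like nuclei, 2982 in endothelial-like, 2370 in T or NK-like and 1070 in macrophage-like nuclei, and it was lowest in adipocyte-like nuclei, at 582 CPM. It was found in 80.4% to 96.2% of the nuclei of these classes. The 19 measured epididymal genes of the list summed to 1313 CPM in brown adipocyte-like nuclei and 9.80 in beige ones. The sums were 2282 and 4.57 in macrophage-like, 5818 and 3.28 in endothelial-like, 4591 and 3.54 in lymphatic endothelial-like and 4553 and 5.28 in T or NK-like nuclei. The 7 epithelial markers were all at 0 in beige endothelial-like nuclei, and 1 of the 7 was at 0 in brown ones, where they summed to 64.7 CPM. The 12 genes of the lymphoid list include the antigen presentation genes Cd74 and H2-Aa. They summed to 903 and 953 CPM in adipocyte-like, 2371 and 3172 in endothelial-like and 2135 and 4680 in lymphatic endothelial-like nuclei. In macrophage-like nuclei the sums were 10177 and 10903 CPM, against 13580 and 13418 in the sham libraries. The median log2 ratio of the listed genes was -0.74 in adipocyte-like, -1.68 in endothelial-like and -2.67 in lymphatic endothelial-like nuclei, each below that of all genes. Of 12 members with at least 50 UMIs, 6 were at least 1.5-fold lower and 2 higher in adipocyte-like nuclei, against 7.59% and 11.6% of all genes. In endothelial-like nuclei 5 and 2 of 9 were, against 8.38% and 14.5% of all genes. In lymphatic endothelial-like nuclei 6 and 0 of 10 were, against 26.3% and 18.9%. Ighm and Igkc were higher with the brown label in adipocyte-like nuclei, at 135 and 68.8 and 57.4 and 12.6 CPM. In endothelial-like nuclei they were higher too, at 312 and 78.7 and 310 and 42.6 CPM. The part of free RNA in the gene ratios below was not tested beyond counting the genes that another class carried at a higher level.

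**Figure D2:**
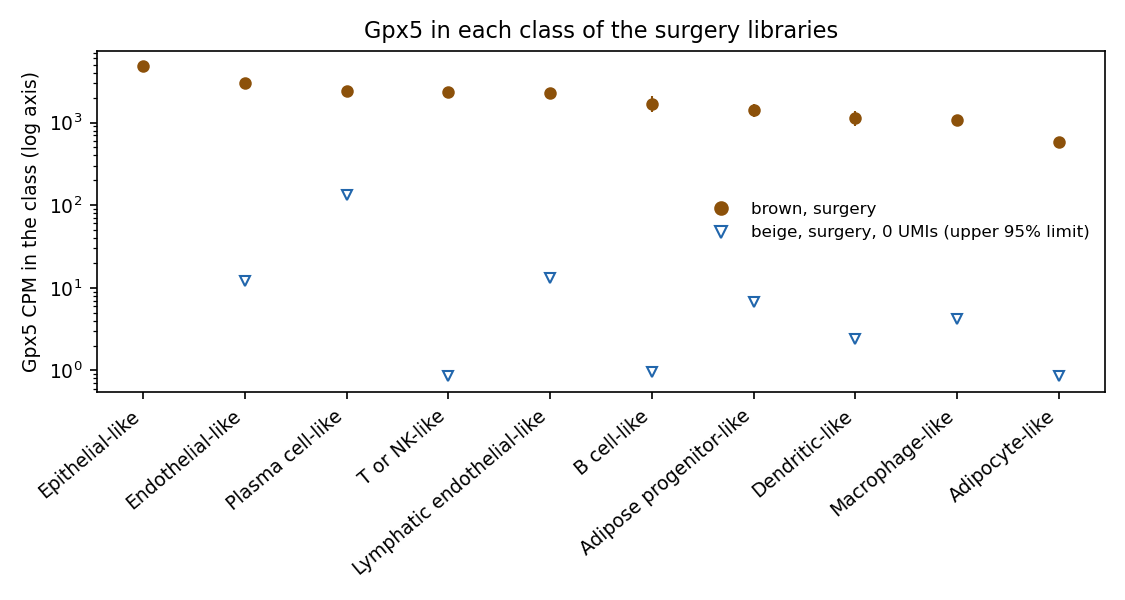
Gpx5 in CPM (log axis) for each class of the brown surgery library (filled points, exact Poisson 95% interval where larger than the point) and the upper 95% limit for the beige surgery library (open triangles), where 0 UMIs were found. Levels in the brown library run from 4783 CPM in epithelial-like to 582 CPM in adipocyte-like nuclei.

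In adipocyte-like nuclei immediate early genes and single position and thermogenic factors (Tbx15, Hoxa9, Prdm16, Cidea) were far lower with the brown label, while most lipid-handling genes lay within 1.5-fold. All 11 adipocyte markers were detected in both, at a summed 41780 and 41317 CPM, and Adipoq, the gene of adiponectin, stood at 324 and 292 CPM. Class totals were 3609358 and 4286860 UMIs. Of 9578 genes with at least 50 UMIs in the pair, 434 (4.53%) were at least 2-fold higher with the brown label and 344 (3.59%) at least 2-fold lower. With median-of-ratios scaling the counts were 355 and 403, so the balance of the sides turned. Another class of the same library had at least 5 times the level for 160 of the 434 (36.9%) and 81 of the 344 (23.5%). Counting only genes that no other class or unnamed cluster of at least 30 nuclei held at as high a level left 56 higher and 73 lower. Different clusters made up the class: cluster 18 held 524 of 572 brown nuclei, cluster 2 held 393 of 490 beige nuclei, and cluster 1 held 32 and 94. Acaca, Klb and C6 were among the leading genes of cluster 18, Ptger3 of cluster 2 and Cidea and Nnat of cluster 1.

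Position genes lay far apart in these nuclei. Tbx15 had 7 and 365 UMIs, or 1.94 and 85.1 CPM, 43.9-fold (21.1 to 110.0) lower with the brown label, against 67.6 and 62.0 CPM in the sham libraries. In the beige library Tbx15 was higher still in the 36 skeletal muscle-like nuclei, at 485 CPM. Hoxa9, a posterior Hox gene, had 2 and 179 UMIs and 0.554 and 41.8 CPM, 75.4-fold (20.6 to 627) lower, against 83.0 and 68.6 CPM in sham. The brown surgery library thus stood apart from the other 3 for both genes. Hoxc10, which marks caudal and subcutaneous depots, had 0 and 55 UMIs and was at least 15.4-fold lower. Hoxc9 had 1.39 and 21.5 CPM, 15.5-fold (6.40 to 48.8) lower, and Shox2 had 1 and 29 UMIs, 24.4-fold (4.05 to 997) lower. Of the 39 Hox genes listed, 15 had at least 50 UMIs, and 8 of these were at least 1.5-fold lower and 2 higher, where 7.59% of all genes were lower and 11.6% higher by that rule. The other 5 were within 1.5-fold, such as Hoxc4 at 33.5 and 37.6 CPM and Hoxb6 at 19.4 and 16.1. The Hox list was not lower as a block. Hoxd4 stood at 39.6 and 9.80 CPM, 4.04-fold (2.85 to 5.85) higher with the brown label, and Hoxd3 at 13.6 and 4.43 CPM, 3.06-fold (1.77 to 5.51) higher. Nr2f1, an orphan nuclear receptor, had 27 and 6 UMIs, below the 50 needed for the count. Of 25 other position factors, 5 had at least 50 UMIs, and 3 of these were lower and 0 higher. The Hox median was -0.72 on the log2 scale over 20 members with at least 20 UMIs, against 0.09 for all genes. Another class held 13 of these 20 at 5 times the level or more in the brown library, and 6 in the beige one. The part of this in the Hox values was not tested.

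Of the 18 thermogenic identity genes, 10 had at least 50 UMIs, and 6 were at least 1.5-fold lower with the brown label and 2 higher. By that rule 7.59% of all genes were lower and 11.6% higher. The median log2 ratio was -0.79 over 11 members with at least 20 UMIs. Prdm16, the coregulator that drives the brown and beige programme, had 36.6 and 326 CPM, 8.91-fold (7.45 to 10.7) lower, against 248 and 262 in sham. Cidea, a lipid droplet protein of thermogenic fat, had 8 and 149 UMIs and 2.22 and 34.8 CPM, 15.7-fold (7.76 to 37.0) lower. Ppargc1a, the coactivator of mitochondrial biogenesis, had 52.6 and 137 CPM, 2.61-fold (2.21 to 3.09) lower. These genes were thus lower with the brown label within adipocyte-like nuclei, although Prdm16 was higher over the whole brown library. Ppara stood at 58.7 and 101 CPM, Kcnk3 at 23.0 and 37.8 and Lhx8 at 1.66 and 12.4, the other members lower. Esrrg, an orphan receptor of oxidative metabolism, was 1.73-fold (1.47 to 2.04) higher at 102 and 59.0 CPM, and Gk, glycerol kinase, 1.56-fold (1.16 to 2.09) higher. Ebf2 at 533 and 614 CPM and Pparg at 4846 and 5664 CPM were within 1.5-fold. The median of the 16 nuclear-encoded respiratory chain genes was 0.24, and 2 of them were higher, Cox4i1 and Atp5o.

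**Figure D3:**
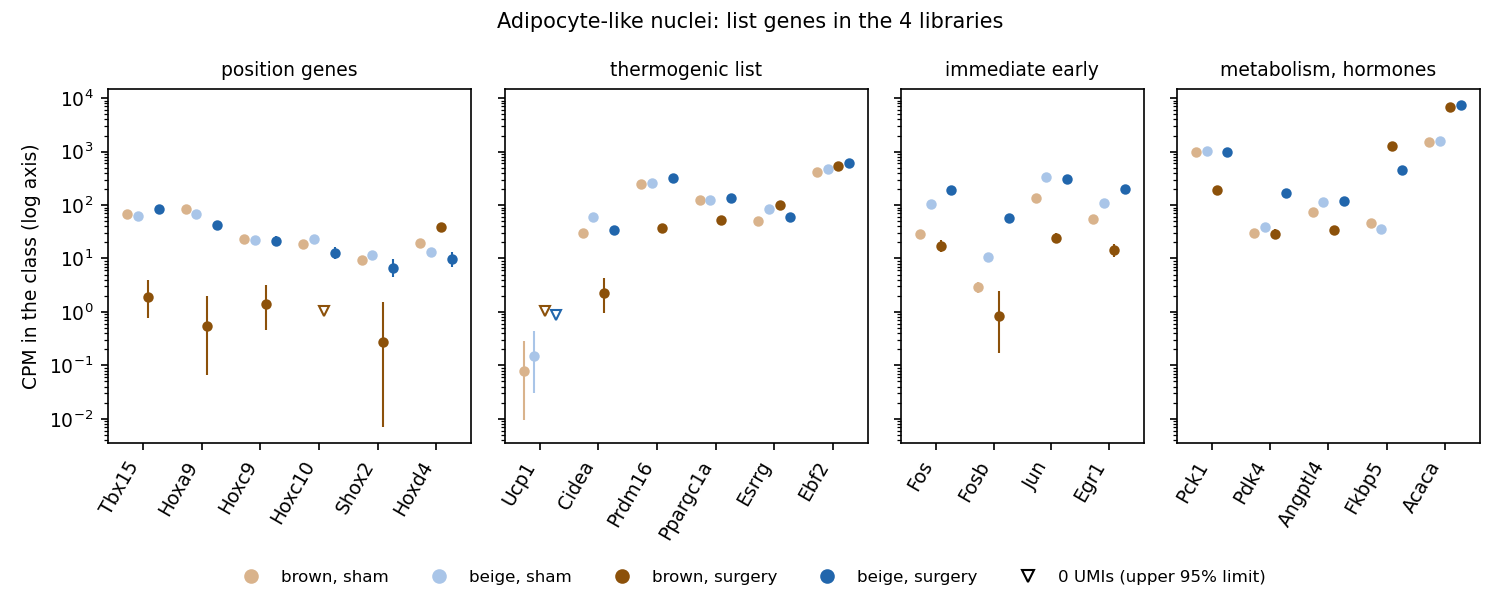
CPM (log axis) of list genes in adipocyte-like nuclei of the 4 libraries, 1 point per library with its exact Poisson 95% interval, and open triangles at the upper 95% limit where 0 UMIs were found in a surgery library. For Tbx15, Hoxa9, Hoxc10, Prdm16 and Pck1 the brown surgery library lies below the other 3, while Acaca is close in both surgery libraries.

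Lipid genes differed by less. Among the 15 fatty acid synthesis genes, 14 had at least 50 UMIs, 0 were at least 1.5-fold higher and 3 lower with the brown label (median -0.27). The shares of all genes past that rule, which apply to each list here, were 11.6% higher and 7.59% lower. Acaca, the acetyl-CoA carboxylase that commits carbon to fatty acids, stood at 6982 and 7429 CPM, a beige over brown ratio of 1.06-fold, against 1483 and 1552 in sham. The 3 lower members were Elovl6 (1.98-fold), which elongates fatty acids, Acacb (1.65-fold) and the desaturase gene Scd1 (1.62-fold). Both surgery libraries were thus far above sham for Acaca and close to each other. Of 10 triglyceride synthesis and uptake genes with at least 50 UMIs, Gpam, the first step of glycerolipid synthesis, was 1.68-fold higher at 509 and 303 CPM. Fabp4, the fatty acid carrier, was 2.43-fold lower at 1226 and 2978. The lipase gene Pnpla2 was 1.66-fold lower and the beta-1 adrenergic receptor gene Adrb1 2.51-fold lower, while Ptger3, a prostaglandin receptor that restrains lipolysis, was 1.51-fold higher. Lipe at 798 and 1085 CPM and Adrb3 at 798 and 633 CPM were within 1.5-fold. Among adipokines, Cfd (adipsin) was 2.08-fold higher at 1106 and 532 CPM, Rbp4 1.53-fold higher and Nnat, an imprinted gene of the list, 2.89-fold lower. Of 13 collagen and matrix genes with at least 50 UMIs 7 were higher and 1, Timp3, lower (median 0.50), and another class of the beige library held 14 of the 17 with at least 20 UMIs at 5 times the level or more. Lep, the leptin gene, was within 1.5-fold at 167 and 221 CPM. Klb, the coreceptor for FGF21, stood at 121 and 169 CPM and the secretin receptor Sctr at 119 and 109, against 18.8 and 17.4 and 28.6 and 23.7 in sham. Of the 9 gut hormone and bile acid receptors, the 3 with at least 50 UMIs were all within 1.5-fold, and Glp1r and Gipr had 0 UMIs in both.

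Hormone-responsive genes differed in both directions. Fkbp5, a chaperone gene induced by glucocorticoid, stood at 1294 and 446 CPM, 2.90-fold (2.75 to 3.06) higher with the brown label, against 46.9 and 35.1 in sham. Pck1, the glyceroneogenic enzyme, stood at 189.5 and 977 CPM, 5.16-fold (4.76 to 5.60) lower, and its sham levels of 979 and 1020.4 were near the beige value. Pdk4, which spares glucose, stood at 28.8 and 168 CPM, 5.83-fold (4.74 to 7.23) lower, and here the brown value was near the sham levels of 29.9 and 39.0. The library that departed from sham was therefore the brown one for Pck1 and the beige one for Pdk4. Over the 12 glucocorticoid targets, 2 were higher (Fkbp5 and Errfi1) and 6 lower, among them Angptl4 (3.45-fold), Sgk1 (3.41-fold) and Dusp1 (5.33-fold), with a median of -0.56. Of 12 insulin and glucose genes 0 were higher and 4 lower, Pck1, Irs2, Slc2a4 and Slc2a1, and the median was -0.04. Insr at 584 and 617 CPM and Irs1 at 662 and 635 were near each other. Of 14 clock genes with at least 50 UMIs, 4 were lower, Hlf at 22.7 and 47.4 CPM, Nr1d1 at 11.1 and 22.2, Nfil3 at 16.9 and 26.6 and Per1 at 43.5 and 65.3.

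Immediate early genes, which respond within minutes to stimulation or handling, were lower with the brown label. The list of 12 also held heat shock genes. Of its members 10 had at least 50 UMIs, and all 10 were at least 1.5-fold lower, against 7.59% of all genes. The median was -3.44, and within cluster 1, which both libraries shared, it was -0.84 with 0s put at 3 UMIs. There Egr1, Fos and Junb had 0 UMIs in 32 brown nuclei, against 45, 42 and 22 in 94 beige nuclei. Fos stood at 17.5 and 193 CPM (11.1-fold lower, 8.56 to 14.5), Jun at 24.1 and 311 (12.9-fold lower, 10.4 to 16.2) and Egr1 at 14.4 and 199 (13.8-fold lower, 10.5 to 18.7). Sham values went the same way by less, with Fos at 29.1 and 107 CPM, Jun at 136 and 338 and Egr1 at 54.4 and 111. The heat shock members Hsph1 and Hsp90aa1 were 2.36-fold and 2.42-fold lower, and Dnajb1 was 10.6-fold lower (6.36 to 18.9). In the beige library Egr1 was higher still in cluster 14, at 1470 CPM. The mitochondrially encoded share of UMIs, a sign of cytoplasm or damage in nuclear libraries, had medians of 0.0288% and 0.0410% in adipocyte-like nuclei. Over all members of the libraries the medians were 0.0384% and 0.0900%. The part of this share in the result was not tested.

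**Figure D4:**
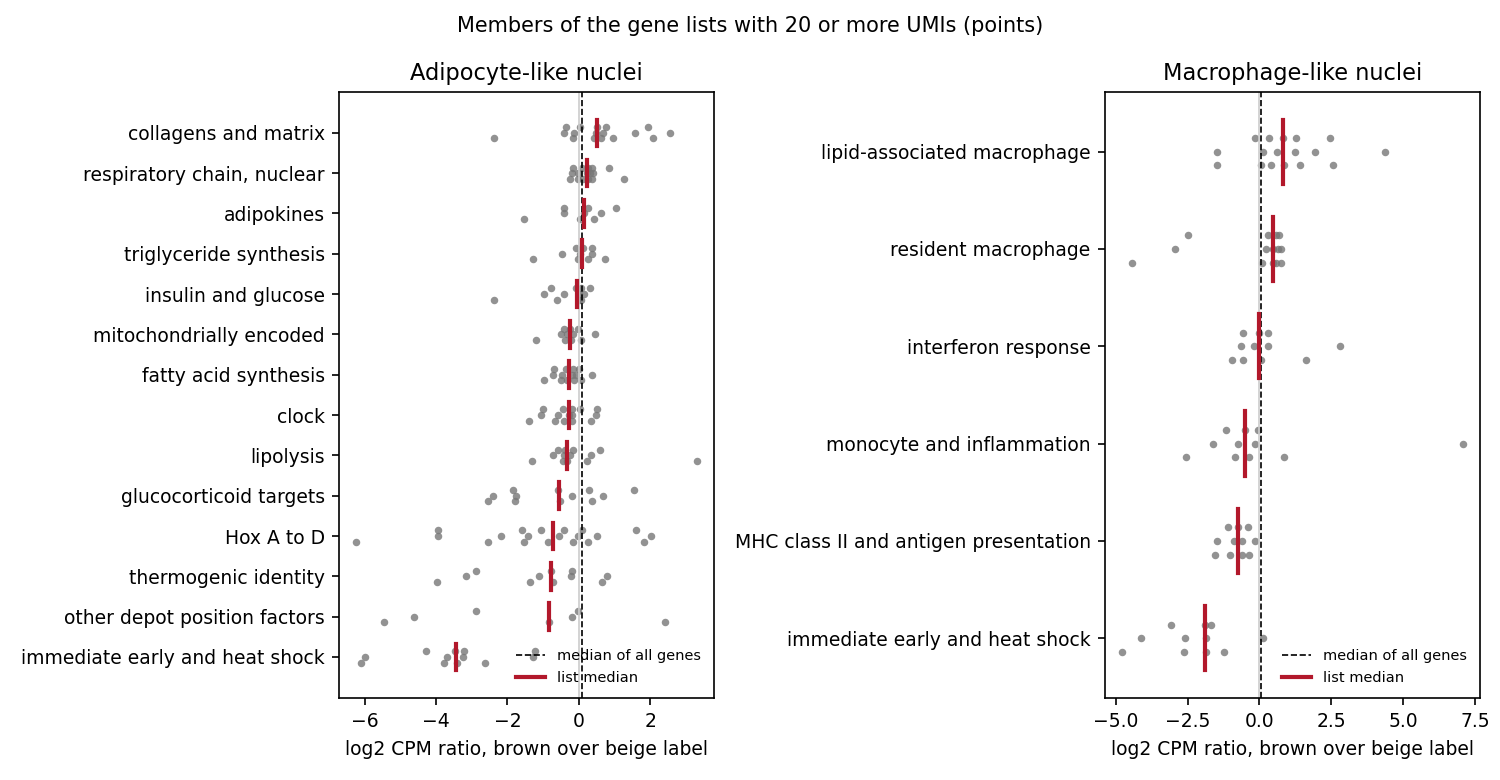
Log2 ratio of CPM, brown over beige surgery library, for list members with at least 20 UMIs (points), with the list median (red) and the median of all genes (dashed), in adipocyte-like and macrophage-like nuclei. The immediate early and heat shock list lies lowest of the lists shown in both classes, with medians of -3.44 and -1.90. The lipid-associated list has the highest median shown in macrophage-like nuclei, 0.82.

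Of genes that no other class carried at 5 times the level, those named by size on the higher side in adipocyte-like nuclei included Defb25, Cst8, Dnajc6, Syt2, C6, Ccbe1, Cadps, Eya1 and Gas6, and of these all but Dnajc6 were at a higher level in another class or unnamed cluster of the brown library. Defb25 and Cst8 are epididymal genes. Dnajc6, a cofactor of clathrin uncoating, stood at 157 and 4.90 CPM, 32.1-fold (20.8 to 52.2) higher. Genes that no other class or cluster held as high included Hp, the haptoglobin gene, at 374 and 59.7 CPM (6.26-fold), the prolactin receptor Prlr at 254 and 49.2 CPM (5.17-fold) and Rnf144b at 167 and 23.3 (7.15-fold). On the lower side the 10 were Fgf14, Fosb, Tbx15, Hoxa9, Junb, Hoxc10, Btg2, Egr1, Jun and Ntrk3. Fgf14, an intracellular FGF that modulates sodium channels, stood at 25.8 and 1058 CPM (41.1-fold lower, 33.5 to 51.0), against 406 and 385 in sham. Ntrk3, a neurotrophin receptor, stood at 16.9 and 212 (12.6-fold lower, 9.69 to 16.6), and Erbb4, a neuregulin receptor, at 136 and 665 (4.90-fold). Cluster 1, the one adipocyte-like cluster with at least 30 nuclei from each library, allowed a narrower view. There the log2 ratio of Tbx15 was -0.31 and that of Egr1 -0.94, with 0s put at 3 UMIs, both under 2-fold. Fgf14 stood at 17.8 and 1017 CPM, Pck1 at 285 and 1311, Prdm16 at 178 and 371 and Fkbp5 at 1282 and 492, these 4 in the direction of the whole class. Its 32 brown nuclei held too few UMIs for the rarest genes, with 0 UMIs of Tbx15 and Hoxa9 against 29 and 22.

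Stromal nuclei turned on which clusters were counted. Adipose progenitor-like nuclei numbered 26 (0.284%) and 133 (2.50%), a share 8.79-fold lower with the brown label. Cluster 14 carried progenitor genes but stayed unnamed, because its leading genes held a marker of another class, Wt1, and no progenitor marker. With this cluster counted the numbers were 564 (6.16%) and 171 (3.21%), 1.92-fold higher (1.61 to 2.29) with the brown label. The direction of the stromal difference therefore depended on this cluster. Its level of Wt1 was 334 and 100.4 CPM (680 and 14 UMIs), and Wt1 was 0 in that cluster in both sham libraries. Dcn, the decorin gene, stood at 1958 and 1126 CPM there and Pdgfra, the growth factor receptor of progenitors, at 364 and 695. In progenitor-like nuclei Tbx15 had 0 and 226 UMIs (0 and 409 CPM), where the sham levels were 351 and 336, so Tbx15 was lower with the brown label in this class too. Pi16 and Dpp4, markers of early progenitors, stood at 285 and 315 and 719 and 651 CPM. With 26 brown nuclei, under the minimum of 50, no gene ratios were taken in progenitors.

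Endothelial-like nuclei lay within 1.5-fold of each other for most lipid uptake genes. Of the 12 immediate early and heat shock genes listed, 4 had at least 50 UMIs, and 3 of these were lower with the brown label. Of 3447 genes with at least 50 UMIs, 200 (5.8%) were at least 2-fold higher and 84 (2.44%) at least 2-fold lower, and 30 and 20 remained when genes as high elsewhere were not counted. Clusters 10 and 20 supplied both libraries (111 and 74, 73 and 40 nuclei). Among 18 lipid uptake and VEGF genes with at least 50 UMIs, 0 were at least 1.5-fold higher and 3 lower, against 14.5% and 8.38% of all genes. The lower ones were Cd36, the fatty acid transporter, at 2245 and 3500.3 CPM (1.56-fold), Rgcc, a cell cycle regulator, at 141 and 249 (1.77-fold) and Car4, a capillary carbonic anhydrase, at 55.2 and 88.6 (1.60-fold, 0.914 to 2.81, an interval that includes 1). Gpihbp1, which anchors lipoprotein lipase in capillaries, was within 1.5-fold at 150.4 and 174 CPM, as was Kdr, the main VEGF receptor, at 305 and 439.6. Both Gpihbp1 values lay far below the sham levels of 1127 and 1721. Egr1 stood at 20.9 and 209.9 CPM, and Jun was 6.23-fold (3.80 to 10.6) lower. Klf2, a flow-responsive factor, was 3.29-fold lower at 83.8 and 276 CPM, and Sgk1 4.43-fold lower. Selp, the P-selectin gene that captures leukocytes and a leading gene of cluster 20, was 3.43-fold (2.38 to 5.09) higher at 383 and 112 CPM. Of 5 Hox genes with at least 50 UMIs, Hoxd4 alone was past 1.5-fold (2.56-fold higher, 1.35 to 5.27), with Hoxb6 at 158 and 131 CPM. The 5 genes named by size on the higher side, Gpx5, Spag11b, Lcn8, Defb20 and Lcn2, were all at higher levels in epithelial-like nuclei or cluster 15. Those on the lower side were Pde1c, Csmd1, Enpp2, Dclk1 and Egr1. Enpp2 turned direction between the clusters, at 74.7 and 17.7 CPM in cluster 10 (log2 2.07) and 26.0 and 1091 in cluster 20. Pde1c, a phosphodiesterase gene, had 2 and 68 UMIs.

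Lymphatic endothelial-like nuclei, 52 and 76 in cluster 27, were higher in most vessel genes with the brown label, together with the markers that named the class. Of 1954 genes with at least 50 UMIs, 181 (9.26%) were at least 2-fold higher and 322 (16.5%) lower, and 105 and 65 were left when genes as high elsewhere were not counted, which turned the balance of the sides. Another scaling moved the median of all genes from -0.09 to -0.25. Of 10 vessel genes with at least 50 UMIs, 8 were at least 1.5-fold higher with the brown label and 1 lower, against 18.9% and 26.3% of all genes. Nrp2, a coreceptor for VEGF-C, stood at 1478 and 446 CPM (3.31-fold higher, 2.62 to 4.20). Flt4, the VEGF-C receptor, stood at 747 and 269 CPM and is itself 1 of the 5 markers that named the class. Those 5 summed to 10973 and 3098 CPM. Lymphoid and muscle markers were higher with the beige label: the 8 T or NK markers summed to 41.1 and 453 CPM (5 and 1 at 0), the 6 B cell markers to 115 and 924 (5 and 0 at 0) and the 8 muscle markers to 0 and 333 (8 and 2 at 0). Their part in the ratios of this class was not tested. Tek and Tie1, the angiopoietin receptors, were 2.81-fold and 2.47-fold higher. Lpl, Pparg and Cav1, also among the 8, are fat genes as well, and the 10 fat genes of the free RNA list summed to 3441 and 1151 CPM in this class. Their part in the count was not tested. Stab2, a hyaluronan receptor and a leading gene of cluster 27, had 2 and 540 UMIs, or 16.4 and 1912 CPM, 116-fold (32.1 to 963) lower with the brown label, and Msr1 had 0 and 79 UMIs (at least 11.4-fold lower). Tnc, a matrix gene, stood at 32.9 and 697 CPM. Adamtsl1 at 1355 and 63.7 CPM (21.3-fold) and Ntn1, the netrin gene, at 2382 and 212 (11.2-fold) were higher with the brown label and at a higher level here than in any other class. The remaining genes named by size were Gpx5, Spag11b, Lcn8 and Efna5 on the higher side and Pcdh15, Nxph1, Dock10 and Hs3st5 on the lower side, each held at a higher level by another class or cluster. Fos, Fosb and Egr1 had 0 UMIs with the brown label and 65, 52 and 50 with the beige label.

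In macrophage-like nuclei most lipid-associated genes past 1.5-fold were higher with the brown label, and most antigen presentation genes were lower. Of 8325 genes with at least 50 UMIs, 549 (6.59%) were at least 2-fold higher and 404 (4.85%) at least 2-fold lower with the brown label, and 148 and 98 remained when genes as high elsewhere were not counted. Cluster 4 held 545 brown and 78 beige nuclei and cluster 12, led by Saa3, Lyz1, Marco and Asic2, held 454 and 161. Of 16 lipid-associated genes with at least 50 UMIs, 9 were at least 1.5-fold higher and 2 lower, against 15.1% and 11.2% of all genes, and the median was 0.82. Apoe, which carries lipid out of the cell, stood at 2689 and 456 CPM (5.89-fold higher, 5.33 to 6.53), and Trem2, the lipid-sensing receptor, at 70.8 and 3.43 CPM from 237 and 3 UMIs (20.6-fold, 6.97 to 101). The cathepsin genes Ctsl at 100.3 and 26.3 CPM (3.81-fold) and Ctsd at 225 and 84.6 (2.66-fold) were also higher. Fabp4 (2.79-fold) and Itgax (2.81-fold), the CD11c gene, were lower, and Gpnmb at 47.5 and 37.7 CPM and Lgals3 at 140.0 and 135 were within 1.5-fold. In the sham libraries the order was the other way, with Trem2 at 26.1 and 76.3 CPM and Ctsl at 167 and 479. Of 13 resident macrophage genes with at least 50 UMIs 5 were higher, among them F13a1 at 5301 and 3164 CPM and Folr2 at 109 and 65.2. The 2 lower ones differed far more. Timd4, a receptor for dying cells, stood at 84.5 and 474 CPM (5.60-fold lower, 4.81 to 6.54), and Retnla, a gene of alternative activation, at 41.2 and 884 (21.5-fold lower, 17.9 to 25.9), against 2065 and 1603 in sham.

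Genes of inflammation gave single large differences, and immediate early genes were lower, as in adipocyte-like nuclei. All 9 immediate early and heat shock genes with at least 50 UMIs were at least 1.5-fold lower with the brown label (median -1.90). By that rule 11.2% of all genes were lower and 15.1% higher in this class. Fos stood at 29.3 and 245 CPM, against 105 and 435 in sham. Saa3, an acute-phase serum amyloid gene, stood at 928 and 6.86 CPM (135-fold higher, 62.0 to 369), against 0.676 and 0.978 in sham. By cluster its levels were 84.3 CPM in cluster 4 and 1896 in cluster 12 of the brown library, and 6.88 and 6.85 in the beige one. Arg1, the arginase gene, had 196 and 0 UMIs (at least 17.1-fold higher), and Olr1, a receptor for oxidised lipoprotein, had 194 and 2 (25.3-fold, 6.92 to 211). Il6 and Ptgs2 had 0 UMIs in both libraries, and Ccr2 at 106 and 137 CPM was within 1.5-fold, so the list did not move as one (2 higher, 2 lower, median -0.52). Of 10 antigen presentation genes with at least 50 UMIs, 0 were higher and 7 lower (median -0.75). The costimulatory genes Cd86 at 300.3 and 605 CPM (2.01-fold lower, 1.81 to 2.24), Cd83 (2.81-fold) and Cd80 (2.11-fold) exceeded the class II gene H2-Aa at 349 and 528 CPM (1.52-fold) in size of difference. B cell-like and dendritic-like nuclei, which express these genes, had the higher shares in the beige library. In macrophage-like nuclei the 6 B cell markers summed to 611 and 802 CPM (1 and 0 at 0), the 6 dendritic markers to 68.4 and 148 (0 and 0 at 0) and the 8 T or NK markers to 20.3 and 274 (2 and 1 at 0). Their part in the result was not tested.

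On the lower side the 10 named genes were Colq, Ttn, Asic2, St6galnac3, Dclk1, Gpm6b, Sh2d4a, Dnase1l3, Sulf1 and Dennd3. Asic2, an acid-sensing ion channel, stood at 4.78 and 2104 CPM (441-fold lower, 271 to 772), and Colq, the collagen tail of acetylcholinesterase, had 0 and 451 UMIs (at least 576-fold lower). Dnase1l3, a secreted nuclease of phagocytes, stood at 1.49 and 206 CPM (138-fold lower, 58.0 to 429.9). Among beige macrophage-like nuclei Asic2 and Colq lay mostly in cluster 12: Asic2 stood at 27.5 CPM in cluster 4 and 3138 in cluster 12, and Colq at 3.44 and 771. Ttn, the titin gene of muscle, stood at 0.597 and 743 CPM, 1110 in beige cluster 12, and at 22786 in skeletal muscle-like nuclei of that library. The 8 muscle markers were all detected in beige macrophage-like nuclei, at a summed 814 CPM with a median of 6.86, and 5 of 8 were at 0 in brown ones. The 10 named on the higher side were Gpx5, Saa3, Defb20, Wfdc10, Defb25, Arg1, Pate6, Cst8, Cstdc2 and Lcn2, and all but Saa3 and Arg1 were at a higher level in cluster 15. Cxcl13, a chemokine that attracts B cells, stood at 389.9 and 56.0 CPM (6.96-fold higher) and was as high in no other class or cluster of the brown library. In the beige library Cxcl13 was also found in cluster 28.

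**Figure D5:**
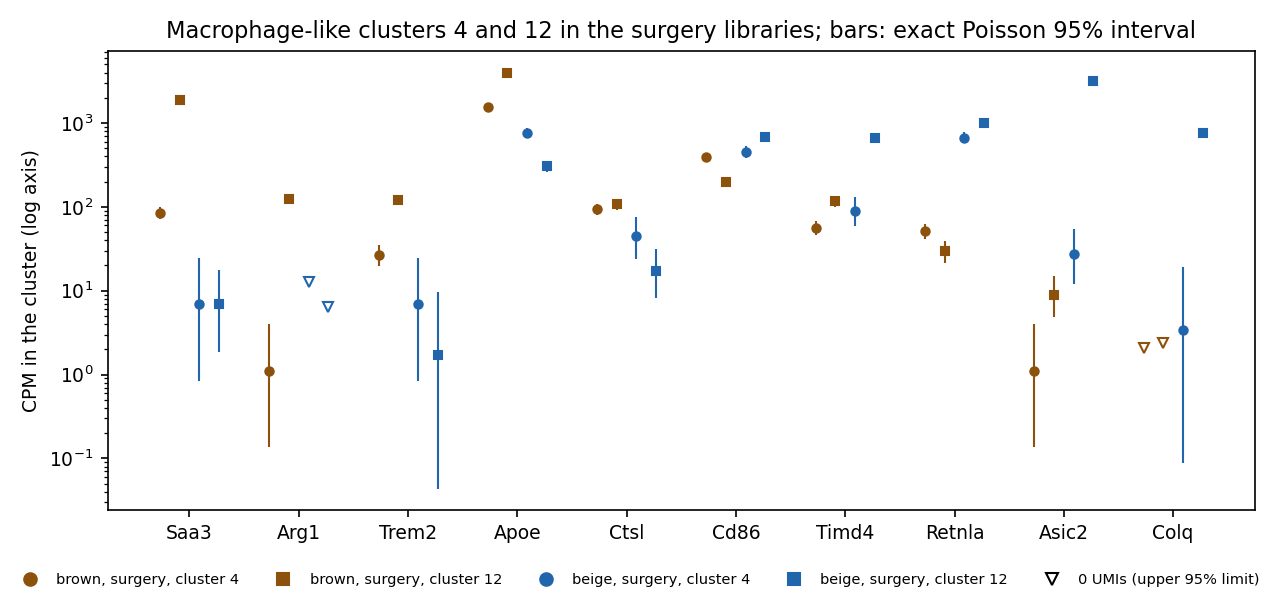
CPM (log axis) of macrophage-like clusters 4 (circles) and 12 (squares) in the brown and beige surgery libraries, with exact Poisson 95% intervals and open triangles at the upper 95% limit for 0 UMIs. Saa3, Arg1 and Trem2 are highest in brown cluster 12, and Asic2, Colq and Timd4 in beige cluster 12.

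In T or NK-like nuclei lineage genes differed in both directions. Of 8488 genes with at least 50 UMIs, 587 (6.92%) were at least 2-fold higher and 884 (10.4%) at least 2-fold lower, and 233 and 142 remained when genes as high elsewhere were not counted. Of 25 lineage genes with at least 50 UMIs, 9 were at least 1.5-fold higher and 10 lower, against 17.6% and 19.7% of all genes, and the list median was 0.09, near the 0.07 of all genes. The members given here are examples from both sides. Ncr1, the NK receptor NKp46, stood at 179 and 12.6 CPM (14.2-fold higher, 9.31 to 21.6), and Cxcr6, a receptor of tissue-resident lymphocytes, at 338 and 59.4 (5.69-fold, 4.38 to 7.33). Trdc, the gamma-delta receptor constant gene, was 5.30-fold higher. Lef1 at 409 and 1424 CPM (3.48-fold lower, 2.85 to 4.30) and Tcf7 at 87.6 and 335 (3.82-fold, 2.49 to 6.19), factors of naive T cells, were lower, as was S1pr1, a receptor for exit from tissue, at 2 and 428 UMIs, 11.8-fold (3.24 to 97.5). Cd4 stood at 41.7 and 107 CPM (2.57-fold lower), Foxp3, the factor of regulatory T cells, had 0 and 145 UMIs (at least 2.66-fold lower), and Cd8a was close at 117 and 103 CPM. The mix of clusters differed. Cluster 29, led by Klra7, Ncr1 and Gzma, held 24 of 137 brown nuclei (17.5%) and 23 of 1571 beige ones (1.46%). Within cluster 5, which held the remainder, Lef1 stood at 451 and 1440 CPM and Cxcr6 at 391 and 59.1. Within cluster 29 Ncr1 stood at 966 and 700 CPM. The direction of Lef1 and Cxcr6 thus held in the larger cluster, and the Ncr1 levels were closer within cluster 29 than over the class. By size over all genes, Gpx5, Lcn8, Spag11b, Defb20 and Clu led the higher side, all at higher levels in epithelial-like nuclei or cluster 15, and Il6st, Nsg2, Aff3, Cmah and Tox2 the lower side. Nsg2, a neuronal vesicle gene also seen in young T cells, had 2 and 826 UMIs (22.7-fold lower, 6.27 to 188) and was as high in no other class.

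Plasma cell-like nuclei were too few for gene ratios with the beige label, and levels are given as they stood. Ighg1, an IgG heavy chain gene, stood at 848 and 71.0 CPM (155 and 2 UMIs), and Igha, the IgA heavy chain gene, at 367 and 1029.8 (67 and 29 UMIs). Ighm, the IgM heavy chain gene, stood at 12622 and 3338 CPM.

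The same labels in the sham libraries gave smaller shares of genes past 2-fold. Over 9525 genes with at least 50 UMIs in both pairs of adipocyte-like libraries, 7.64% were at least 2-fold apart after surgery and 1.27% in sham. For macrophage-like nuclei the shares were 9.50% and 3.68%, and they were 7.22% and 3.29% in endothelial-like and 10.6% and 3.58% in T or NK-like nuclei. Of the 9525 genes in adipocyte-like nuclei, 386 were higher after surgery and 59 in sham. In both pairs 31 were higher, 8.03% of those higher after surgery and 52.5% of those higher in sham. A further 22 were lower in both, 10 were higher after surgery but lower in sham, and 8 were the reverse. In macrophage-like nuclei these 4 counts were 22, 38, 23 and 22, and in endothelial-like nuclei 9, 2, 14 and 2. For T or NK-like nuclei they were 20, 13, 11 and 4. The pairs differ in nuclei per class, 4073 and 4797 adipocyte-like nuclei in sham against 572 and 490 after surgery, and no test of the difference between pairs was possible with 1 library a group.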

How the data were processed

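RNA labelled as nuclear was profiled with SeekGene single-cell libraries, 1 for each of 4 groups. The authors deposited whole-number UMI counts per gene and barcode for 32285 genes. Per the submitters' processing notes the build was mm10 and Seurat (4 and 4.4.0) was used. For alignment and counting the tool is not given in the sources used here.

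From these counts, barcodes with at least 300 genes and under 10% mitochondrially encoded UMIs were kept in each library. Doublets were marked per library with Scrublet in scanpy 1.11.5 (automatic threshold in the surgery libraries, the highest 6% in the sham libraries) and left out. All 4 libraries were scaled to 10000 UMIs a nucleus, logged and clustered together by Leiden (leidenalg 0.10.2, resolution 1) on 2000 variable genes, 30 principal components and 15 neighbours, giving 35 clusters. A cluster was named from fixed marker lists where at least 3 markers were 2-fold enriched, found in 5% of its nuclei and averaged 4-fold. Past these limits it still stayed unnamed where another, unrelated class scored at least 60% as high, or where markers of another class led. The same held for low depth or more than 2 mitochondrially encoded genes among the 10 leading ones. A rule on Ccl19 and Cxcl13, added after the clusters were seen, left cluster 28 unnamed. These limits were chosen with the clusters in view, and a difference from other annotations may come from the rebuilt names. Raw UMIs were summed per class and library and divided by the class total (CPM).

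Members, classes and lists were chosen with earlier results of these data known. With 1 library a group no test was run: intervals are exact (Clopper-Pearson, Poisson or conditional binomial, scipy 1.17.1) at 95% and cover counting error only, and a 0 was put at 3 UMIs for a fold, written "at least". Genes were named by size: on each side the 10 (adipocyte-like, macrophage-like) or 5 (other classes) genes whose interval lay farthest from 1, with at least 50 UMIs in the pair, leaving out Gm and Rik symbols and genes that another class of the library carried at 5 times the level. The same rule was repeated, after the data were seen, among genes as high in no other class or unnamed cluster of at least 30 nuclei. Only the library where the gene was higher was looked at for this. List members were named for their size of change or role, and some genes under these rules are not reported here. The ratio code was tested on simulated counts. Total UMIs were 60409801 (brown, surgery) and 23118695 (beige, surgery). Alternatives were other UMI minimums, median-of-ratios scaling, doublets kept, resolution 0.5, the surgery libraries clustered alone, thinning to 1000 UMIs, the cluster shared by both libraries and genes carried by another class left out. Gene positions are from GENCODE M21.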

Additional observations from a re-analysis of the deposited data

Results flagged for a closer look

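The 11 values here are log2 ratios of the brown over the beige label in the sham libraries that pointed the opposite way from the surgery libraries. Each comes from 1 library a group, and the difference between the pairs was not tested.

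In adipocyte-like nuclei Lhx8 had a sham log2 ratio of 1.41, at 19.1 and 7.23 CPM, and was lower with the brown label after surgery. In macrophage-like nuclei the sham ratio was -1.54 for Trem2, -1.52 for Ctsl, -1.01 for Ctsd and -1.76 for Cd9, all lipid-associated genes that were higher with the brown label after surgery. Mmp12, a macrophage elastase, had a sham ratio of -8.06, with 0 UMIs in the brown sham library put at the floor of 3. The others went the other way around, being higher with the brown label in sham and lower after surgery: Timd4 at 1.31, Asic2 at 1.46, Sulf1 at 1.17 and Ttn at 3.86. Brown sham tissue held 404 skeletal muscle-like nuclei and beige sham tissue 2, while the surgery libraries held 0 and 36. The part of these nuclei in the Ttn ratios was not tested. In T or NK-like nuclei Prf1, the perforin gene, had a sham ratio of -1.0025 and was higher with the brown label after surgery, at 62.6 and 19.0 CPM.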

How the results depend on the processing

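Each class count of genes is limited by depth, since a gene near 50 UMIs in the pair has an interval of its ratio that can reach past 2-fold. Counts are given as higher, then lower, with the brown label. With at least 20 UMIs they were 810 and 654 in adipocyte-like, 1102 and 733 in macrophage-like, 634 and 282 in endothelial-like, 433 and 747 in lymphatic endothelial-like and 1430 higher in T or NK-like nuclei. With at least 200 UMIs they were 131 and 140, 153 and 146, 23 and 6, 42 and 58, and 134 and 334 in the same order. With no minimum they were 3116 and 2595, 1529 and 5588, 1799 and 3431, 5167 and 1575, and 9493 higher. Thinned to 1000 UMIs a nucleus they were 123 and 108, 243 and 191, 50 and 28, 55 and 53, and 292 and 588. Both a higher minimum and thinning leave fewer genes to count. With genes carried by another class left out they were 160 and 190 in adipocyte-like and 300 and 216 in macrophage-like nuclei, and the lower counts were 50 in endothelial-like, 213 in lymphatic endothelial-like and 435 in T or NK-like nuclei. Genes as high elsewhere not counted, an alternative added after the data were seen, gave 56 and 73, 148 and 98, 30 and 20, 105 and 65, and 233 and 142. With doublets kept, 1214 were higher in macrophage-like and 142 lower in endothelial-like nuclei, and the cause was not tested. Within adipocyte-like cluster 1 they were 84 and 209, from fewer nuclei. The remaining 39 counts stayed within 1.5 times.

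The share of progenitor-like nuclei, lower with the brown label, was higher by 1.92 times at resolution 0.5, by 1.60 times with the surgery libraries clustered alone and by 1.92 times with cluster 14 counted in, the last added after the data were seen. In each, nuclei of that cluster entered the class. The brown over beige ratio of shares was 1.75 (resolution 0.5) and 3.12 (clustered alone) for macrophage-like nuclei, and 0.729 for endothelial-like nuclei with doublets kept. For dendritic-like nuclei it was 0.161 with doublets kept, 0.0137 at resolution 0.5 and 0.0158 clustered alone, and for B cell-like nuclei 0.0136 clustered alone. The cause was not tested.

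For the genes named by size, 343 alternative values kept their direction and stayed past 2-fold, though with changed size, and 2 fell under 2-fold within the shared cluster, Tbx15 (log2 -0.31) and Egr1 (-0.94). Within the shared cluster Hoxa9 (log2 0.093), Junb (0.093) and, in endothelial-like nuclei, Enpp2 (2.07) turned direction, the first pair because 0 UMIs were put at the floor of 3. List medians whose sign turned under some alternative were triglyceride synthesis (-0.01 to 0.21), adipokines (-0.11 to 0.21), insulin and glucose (-0.14 to 0.13) and the respiratory chain (-0.48 to 0.26) in adipocyte-like nuclei. The others were monocyte and inflammation (-0.90 to 0.05) and interferon response (-0.64 to 0.03) in macrophage-like and lineage (-0.01 to 0.19) and immediate early genes (-0.92 to 0.31) in T or NK-like nuclei. The adipocyte-like immediate early and heat shock median ran from -3.58 to -0.84 and the thermogenic from -1.10 to -0.44. The macrophage-like lipid-associated median ran from 0.50 to 0.97. No paired analysis was possible because each group is 1 library and no test was run.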
